A study of Homo sapiens with 6 samples.

Results

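Both knockdowns of the microRNA pathway were pooled here: 4 arrays of MDA-MB-231 cells in which a hairpin RNA targets either DICER1 or DROSHA were compared with 2 arrays of control MDA-MB-231 cells. Probes with a detection p-value below 0.05 on at least 2 of the 6 arrays were normalized on the log2 scale, and genes were described whose 4 knockdown arrays all lay above, or all below, both control arrays. Of 17790 features measured, 919 (5.17%) lay above and 732 (4.11%) lay below on all 4 knockdown arrays, together 1651 (9.28%). Averaged over the 15 ways to split 6 arrays into 4 and 2, a share of about 0.0667 would lie on each side. Together that is about 0.133, and the shares found were below these values. A feature was a named gene, represented by its brightest kept probe, or a probe with no gene symbol. Among the 12083 named genes, 590 (4.88%) lay above and 512 (4.24%) below.

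MDA-MB-231 is a human breast cancer cell line that the labels call basal-like. The 3 groups were control cells, cells stably expressing a hairpin against DICER1 (DICER1-sh) and cells stably expressing a hairpin against DROSHA (DROSHA-sh), with 2 Illumina bead arrays each; no group received a further treatment, and the design text gives the question as which mRNAs respond when miRNA synthesis is inhibited. Whether a hairpin was present in the control cells, whether a knockdown was 1 clone and whether a group's arrays stand for separate cultures are not given in the labels, and the p-values therefore reflect the spread between arrays, which may be technical. All 12 markers fixed for MDA-MB-231 were above background on all 6 arrays, with a mean over the list of at least 12.8 on every array. Of 16 luminal breast cell markers 10 were measured, 8 of them above background on all 6 arrays, with list means of 8.23 to 8.69 in control and 8.53 to 8.84 in the knockdowns; ESR1, FOXA1, PGR, TFAP2B and TFF1 were among those not kept.

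DROSHA cuts the primary transcript of a miRNA gene into a hairpin in the nucleus, and DICER1 cuts that hairpin in the cytoplasm into the mature duplex. An Argonaute protein then carries 1 strand of the duplex, whose seed, bases 2 to 8, pairs with sites in mRNAs and lowers their stability and translation. The mRNAs paired by a miRNA are therefore those that loss of either enzyme would release, and 8 lists of such targets were examined, 7 for a family and 1 joining miR-31, miR-10b and miR-146. For the 7 families a mature sequence is shown because those lists are organised by seed, which is in capitals (5′ to 3′, RefSeq, GRCh38.p14). None of the 7 seeds was the same as another.
hsa-let-7a-5p (chr9:94175962-94175983, + strand): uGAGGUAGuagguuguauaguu
hsa-miR-21-5p (chr17:59841273-59841294, + strand): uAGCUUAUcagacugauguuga
hsa-miR-17-5p (chr13:91350618-91350640, + strand): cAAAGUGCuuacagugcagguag
hsa-miR-29b-3p (chr7:130877467-130877489, - strand): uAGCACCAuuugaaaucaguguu
hsa-miR-30a-5p (chr6:71403595-71403616, - strand): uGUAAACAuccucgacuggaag
hsa-miR-200c-3p (chr12:6963742-6963764, + strand): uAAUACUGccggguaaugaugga
hsa-miR-221-3p (chrX:45746180-45746202, - strand): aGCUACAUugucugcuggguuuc

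Control 1 stood apart from the other arrays, and this touches every pooled value. Its normalized values had a correlation of 0.957 across kept probes with control 2 and 0.982 with DICER1-sh 2, but 0.936 with DICER1-sh 1. Control 2 in turn had correlations of 0.989 and 0.990 with the DROSHA-sh arrays, higher than with control 1, so neither control was most like the other and whether arrays were exchanged was not tested. The 2 DROSHA-sh arrays had a correlation of 0.993 with each other. The median absolute difference between the 2 controls was 0.507 on the log2 scale, against a median absolute pooled change of 0.247. The first is between single arrays and the second between means of arrays, which vary less. Raw median intensities of the 6 arrays lay between 150.2 and 166.7, and 42.0% to 44.4% of all probes had a detection p-value below 0.05. The letters that name the positions on the chip run with the groups, so position and group cannot be told apart.

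The targeted genes were read first. For DICER1 (ILMN_1772692) the controls read 10.55 and 9.36, the DICER1-sh arrays 8.41 and 8.66, and the DROSHA-sh arrays 10.36 and 10.27. The DICER1-sh arrays were the lowest of the 6 and the DROSHA-sh arrays lay between the controls, so the groups overlapped in the pooled comparison, which gave a change of -0.53 (SE 0.61). Without control 1 that change was 0.06. For DROSHA (ILMN_1790410) the controls read 11.58 and 10.91, the DICER1-sh arrays 11.40 and 10.81, and the DROSHA-sh arrays 9.0 and 8.98. The pooled change was -1.20 (SE 0.67), and DICER1-sh 1 lay between the controls, so the groups overlapped on this probe too. A second DROSHA probe (ILMN_2152095) read 8.33 and 7.28 in control, 7.11 and 7.27 in DICER1-sh and 5.75 and 5.76 in DROSHA-sh. Its groups did not overlap, by a gap of 0.01, with a difference of -1.33 (SE 0.52). The second DICER1 probe (ILMN_2349831) differed by -0.81 (SE 0.63), with overlapping groups. Each label was thus matched by the lowest readings of its own target.

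In the pooled limma fit no feature passed an adjusted p of 0.05 (0 of 17790, 0% called). The smallest adjusted p was 0.570, at the unnamed probe ILMN_1676009, which read 5.40 and 5.71 in the controls and 7.11, 7.31, 7.30 and 7.36 in the knockdowns. That probe was not above background in the controls and at least 2.99-fold higher in the knockdowns. Among named genes the smallest adjusted p was 0.805, and 359 had an unadjusted p below 0.05. Over all 17790 features 529 had an unadjusted p below 0.05, of which 316 were higher in the knockdowns. That is less than the share of 0.05 that would meet this limit if no feature differed. At that sample size every gene below is described by its values, and none is called changed. In RNA from whole cultures, fewer cells of a kind and less RNA per cell cannot be told apart. Differences are means of 4 knockdown arrays minus means of 2 control arrays on the log2 scale. In the pooled fit, differences between the DICER1-sh and DROSHA-sh arrays count as spread and so enter each SE and p-value. With 2 controls against 4 knockdown arrays there are 15 ways to split the arrays, and the smallest p of an exact permutation test of a single gene is 0.0667 one-sided and 0.133 two-sided.

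The genes that did not overlap mostly differed by little. The median difference was 0.44 among the 590 named genes above and -0.42 among the 512 below, each log2, and the median gap between the nearest knockdown and control arrays was 0.093 and 0.072. In 84 of the genes above and 32 of those below, the probe was above background in the higher group and on no array of the lower. A measured difference of at least 2-fold was reached by 18 named genes above and 4 below. The gap was over 0.5 for 14 genes above and 6 below. The split between directions depended on scaling: 919 above against 732 below put 55.7% above, whereas median scaling in place of quantile normalization gave 1160 above and 568 below, or 67.1% above. Of the 590 named genes above 423 remained so under median scaling, and of the 512 below 248. The gene with the narrowest gap inside the rule was AKR1B10, whose lowest knockdown array read 6.08 and highest control array 6.08. Just outside it was MINDY1, with 9.12 on both sides.

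**Figure D1:**
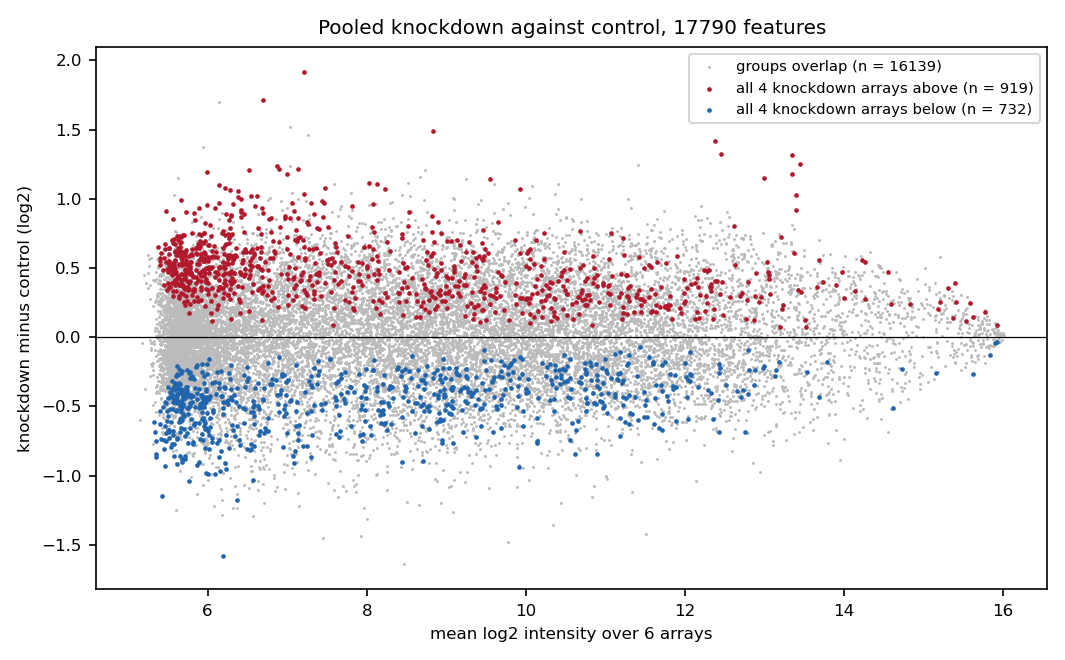
Difference between the mean of 4 knockdown arrays and the mean of 2 control arrays (vertical axis, log2) against the mean log2 intensity of all 6 arrays (horizontal axis), 1 point per feature. The 919 features above and the 732 below lie on either side of 0 along the whole range of intensity, among 16139 features whose groups overlapped.

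Of the 12 genes with the widest gap above the controls, 7 were above background on at least 1 control array. ZC3H12A (ILMN_1672295), a ribonuclease that degrades inflammatory mRNAs, read 6.01 and 6.09 in control, 7.56 and 6.76 in DICER1-sh and 7.33 and 7.49 in DROSHA-sh, a difference of 1.24 (SE 0.27; 2.35-fold). VDR (ILMN_2319952), the nuclear receptor for vitamin D, read 6.18 and 6.64 in control, 7.31 and 7.50 in DICER1-sh and 7.31 and 7.40 in DROSHA-sh, a difference of 0.97 (SE 0.23). For both genes the lowest knockdown array lay further from the higher control than the controls lay from each other, with gaps of 0.68 and 0.66. DEFB103A (ILMN_1684308), an antimicrobial beta-defensin, read 5.38 and 6.48 in control, 8.02 and 7.18 in DICER1-sh and 8.11 and 8.08 in DROSHA-sh, the largest difference of the 12 at 1.92 (SE 0.38; 3.78-fold). DEFB103A was above background on 1 of the 2 controls and has a near-identical copy whose RNA the probe could also bind. CALB2 (ILMN_1748840), the calcium-binding protein calretinin, read 8.27 and 8.22 in control, 9.34 and 8.81 in DICER1-sh and 9.20 and 9.12 in DROSHA-sh. Its controls differed by less than the knockdown arrays did among themselves, and the difference was 0.88 (SE 0.24).

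In control cells the other 5 stayed below the background limit. SLC66A1 (ILMN_2330597), a lysosomal exporter of cationic amino acids, read 5.31 and 5.52 in control against 6.85, 6.30, 6.53 and 6.38 in the knockdowns, which is at least 1.77-fold higher because no control array was above background. PARVB (ILMN_1787919), the focal adhesion protein beta-parvin, read 5.45 and 5.53 in control against 6.33, 6.27, 6.58 and 6.66, at least 1.71-fold higher. These bounds set the bright group's mean against the lowest signal with a detection p-value below 0.05 on each control array. BOLA1, B3GNT8 and KCNRG, a mitochondrial protein, a glycosyltransferase and a regulator of potassium channels, were likewise not above background in control, with bounds of at least 1.11-fold, 1.64-fold and 1.16-fold. Among the 7, BTN3A2 (ILMN_1676528), of a butyrophilin family that regulates gamma-delta T cells, read 5.98 and 5.94 in control, 7.32 and 7.0 in DICER1-sh and 6.62 and 6.70 in DROSHA-sh. ZBTB47, a zinc finger protein above background on 1 of the 2 controls, differed by 1.21 (SE 0.29). In the limma fit all 12 genes had an adjusted p of 0.805.

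SPANXA1 was the remaining gene of the 12 and belongs to a family of nuclear proteins of sperm that tumours can express. All 5 measured SPANX genes on chromosome X lay above the controls on all 4 knockdown arrays, with differences of 1.14 to 1.41. Over all named genes 4.88% lay above, and the other SPANX genes were named after their values were seen. SPANXD (ILMN_1732781) read 10.74 and 12.14 in control, 12.78 and 12.55 in DICER1-sh and 13.10 and 12.98 in DROSHA-sh. SPANXA1 (ILMN_2233319) read 8.31 and 9.27 in control, 10.02 and 9.83 in DICER1-sh and 9.82 and 10.06 in DROSHA-sh. In each of the 5 genes control 1 was the lowest array and control 2 the next, so against control 2 alone the differences were 0.58 to 0.72, and against control 1 alone 1.62 to 2.11. The genes are near-identical, so their probes can share signal and are not 5 separate measurements. The promoter, taken as the 300 bases from 250 before to 50 after the RefSeq start, was the same in SPANXA1 and SPANXA2, and SPANXC differed from SPANXA1 at 5 positions, an identity of 98.3%. At the best ungapped alignment of these windows SPANXB1 had 63.8% identity with SPANXA1 and SPANXD 29.6%. These figures allow no inserted base and depend on where each annotated start lies. The end of the SPANXD window repeats the start of the SPANXB1 window, so the percentages do not measure how alike the promoters are. The promoters of SPANXA1 and SPANXC are shown as the alike pair with differing letters, with the 5 differing bases in capitals (5′ to 3′ on the gene's strand, RefSeq, GRCh38.p14).
SPANXA1 (chrX:141584689-141584988, - strand): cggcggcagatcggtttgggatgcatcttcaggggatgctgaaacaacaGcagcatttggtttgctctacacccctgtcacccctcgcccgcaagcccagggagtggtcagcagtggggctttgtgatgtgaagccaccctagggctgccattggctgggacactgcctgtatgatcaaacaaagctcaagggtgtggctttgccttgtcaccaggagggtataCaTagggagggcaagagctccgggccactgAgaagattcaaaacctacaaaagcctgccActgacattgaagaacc
SPANXC (chrX:141242468-141242767, - strand): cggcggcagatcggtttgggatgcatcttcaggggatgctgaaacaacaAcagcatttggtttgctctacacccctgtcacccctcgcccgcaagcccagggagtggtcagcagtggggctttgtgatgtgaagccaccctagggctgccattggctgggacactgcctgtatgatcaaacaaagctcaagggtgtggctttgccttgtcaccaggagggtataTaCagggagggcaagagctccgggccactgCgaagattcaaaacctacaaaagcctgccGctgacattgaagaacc

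Among the 12 genes with the widest gap below the controls, the leading transcripts were ASAP1-IT1, FARP2 and SUDS3. ASAP1-IT1 (ILMN_3244390), a noncoding transcript within the ASAP1 gene, read 6.12 and 6.26 in control against 4.97, 4.97, 5.16 and 5.07 in the knockdowns, where it was not above background, at least 1.38-fold lower. FARP2 (ILMN_2062687) read 6.46 and 6.45 in control against 5.18, 5.27, 5.64 and 5.58, also at background in the knockdowns and at least 1.66-fold lower. SUDS3 (ILMN_1757754), a subunit of the SIN3 histone deacetylase complex, read 6.72 and 6.79 in control against 5.85, 5.92, 5.80 and 5.48, a difference of -0.99 (SE 0.23). In all 3 the controls lay closer to each other than to any knockdown array.

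CA2 (ILMN_1662795), a cytosolic carbonic anhydrase, read 9.01 and 9.08 in control, 7.85 and 8.11 in DICER1-sh and 8.18 and 8.41 in DROSHA-sh. Its difference was -0.90 (SE 0.24; 1.87-fold lower). RHOBTB1 (ILMN_2376502) read 7.52 and 7.66 in control and 6.94, 6.86, 6.87 and 6.93 in the knockdowns, which lay closer to each other than the controls did. SMAD9, a signal transducer of bone morphogenetic proteins, differed by -0.95 (SE 0.26), and PER3, a component of the circadian clock, by -0.74 (SE 0.26). ZNF804A, NBEA, RAB12 and CSNK1A1L, the last a casein kinase whose DROSHA-sh 2 array read 5.48 against 6.28 to 6.63 on the other knockdown arrays, differed by -0.79, -0.59, -0.68 and -1.03. The olfactory receptor pseudogene OR5G5P was not above background in the knockdowns and was at least 1.5-fold lower there. In the limma fit these 12 genes also had an adjusted p of 0.805.

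**Figure D2:**
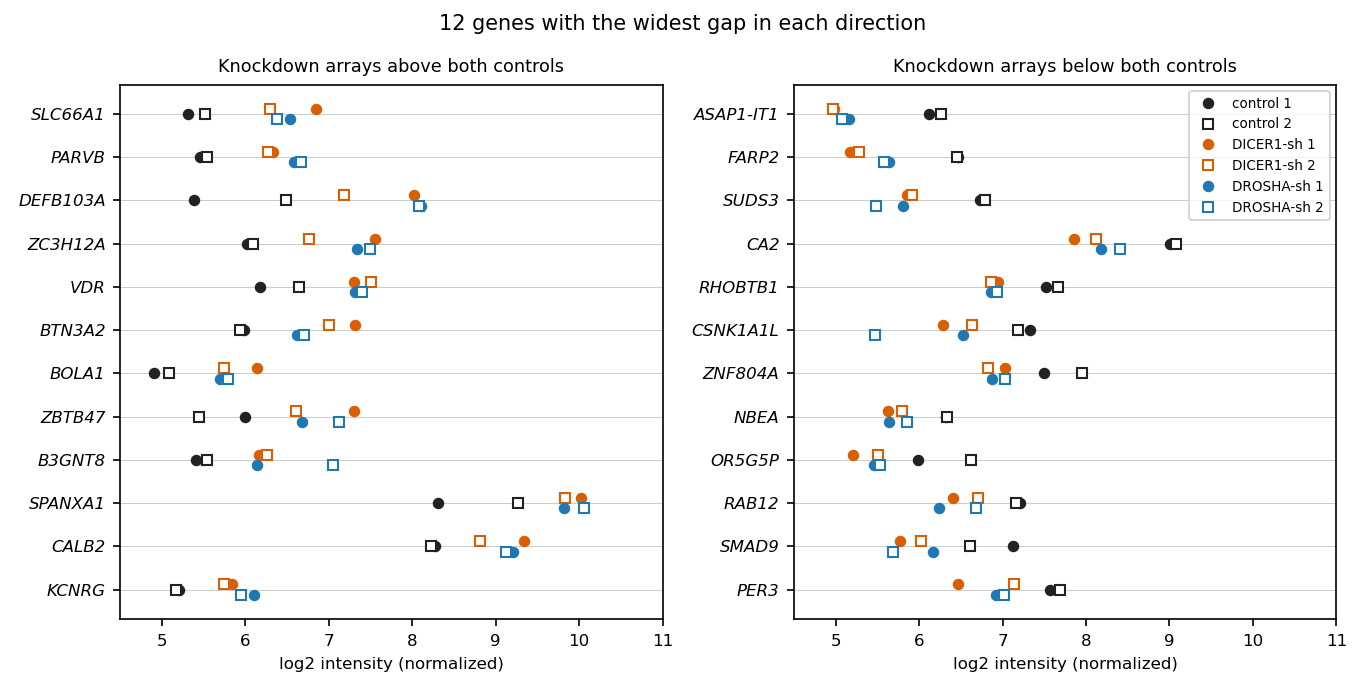
Normalized log2 intensity on each of the 6 arrays for the 12 named genes with the widest gap above (left) and below (right) the controls; circles are replicate 1 and squares replicate 2. In every row the 4 coloured knockdown points lie on 1 side of both black control points, with a gap of at least 0.54 on the left and 0.43 on the right.

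A second probe gave another reading of some of these genes. Of the 590 genes above, 135 had a second kept probe, and in 16 (11.9%) that probe too lay above on all 4 arrays, against 4.22% of the second probes of all 3345 genes with several probes. Of the 512 genes below, 156 had a second probe and 21 of those (13.5%) lay below as well, against 5.02%. Probes of a gene share the arrays and often the transcript, so these shares are a description. The second probe had the same sign in 96 of 135 genes above (71.1%) and 122 of 156 below (78.2%), and in 75.0% of all genes with several probes.

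The genes read alike by both probes were named after their values were seen. Among those above were SPANXA1 and SPANXD, with second-probe differences of 1.74 and 1.30, the cell-cycle cyclin CCND2 with 0.79, and DSP, the desmosomal plaque protein desmoplakin, with 0.50. Among those below were CA2, whose second probe differed by -1.16, and PCNA, the sliding clamp of DNA replication. NSD2, a histone methyltransferase, differed by -0.78 and -0.90 on its brightest and second probe, and CPT1A, which carries fatty acids into mitochondria, by -0.36 and -0.48. The retinaldehyde dehydrogenase ALDH1A3 differed by -0.62 and -0.47, and IGFBP3, which binds insulin-like growth factors, by -0.44 and -0.32. By contrast the second probe of SPANXB1 differed by 0.09 against 1.25 on its brightest probe, with overlapping groups. The second probes of PARVB and BTN3A2 differed by -0.03 and 0.12, and those of CALB2 and DEFB103A by 0.46 and 1.00, each with overlapping groups.

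**Figure D3:**
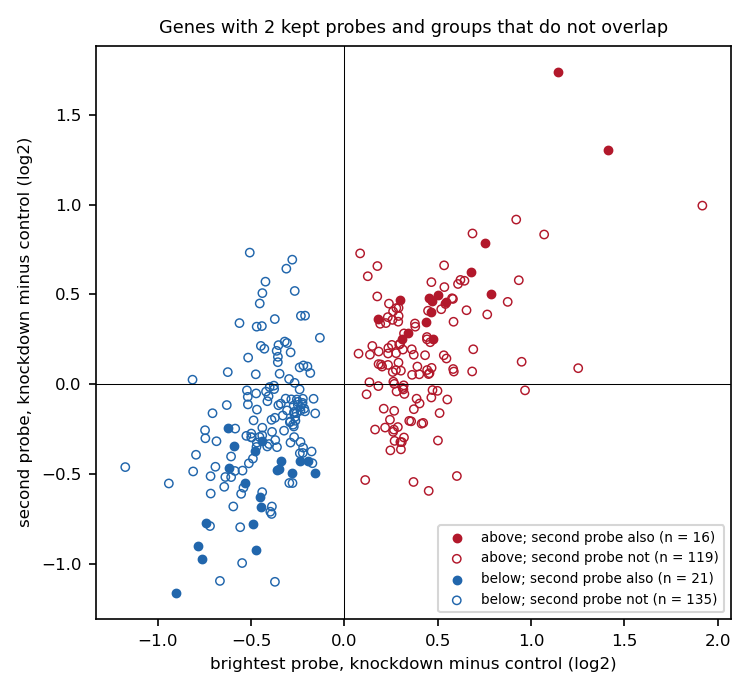
Difference between knockdown and control means on the second-brightest probe (vertical axis, log2) against the brightest probe (horizontal axis, log2), for genes with at least 2 kept probes whose brightest probe did not overlap. Filled points, 16 of 135 above and 21 of 156 below, are genes whose second probe did not overlap in the same direction.

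The lists of genes by pathway did not hold more non-overlapping genes than the background. Of 667 listed genes measured, 30 lay above and 30 below, together 9.0% against 9.12% of all named genes, and none passed the threshold. The list of NF-kB and inflammatory genes had 4 of 29 above and 0 below, 13.8% against 9.12%. Besides ZC3H12A these were CCL20, a chemokine for the receptor CCR6, and NFKBIA and NFKBIE, inhibitors that hold NF-kB in the cytoplasm. CCL20 (ILMN_1657234) read 6.29 and 6.63 in control, 7.25 and 6.87 in DICER1-sh and 7.50 and 7.67 in DROSHA-sh, a difference of 0.86 (SE 0.28). NFKBIA differed by 0.31 (SE 0.22) and NFKBIE by 0.18 (SE 0.21). The median over the 29 genes was 0.19, against 0.014 over all named genes, and was 0.16 without control 1 and 0.28 without control 2.

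Promoters of 3 of these 4 NF-kB genes were read for the NF-kB consensus on both strands. CCL20 and NFKBIA each had 1 match, and the promoter of ZC3H12A had none; that of NFKBIE was not analysed here. Among genes with a promoter sequence, a match stood in 7.84% of those above, 10.5% of those below and 10.2% of all measured genes, and in 8.75% of all 27305 promoters of the table. Shares for TATAAA were 7.42%, 7.80% and 6.14%, and for TGANTCA, read by AP-1 factors, 6.57%, 5.12% and 4.48%; the motifs searched do not contain each other. The promoters of CCL20 and NFKBIA follow, with the match in capitals (5′ to 3′ on the gene's strand, RefSeq, GRCh38.p14).
CCL20 (chr2:227813592-227813891, + strand): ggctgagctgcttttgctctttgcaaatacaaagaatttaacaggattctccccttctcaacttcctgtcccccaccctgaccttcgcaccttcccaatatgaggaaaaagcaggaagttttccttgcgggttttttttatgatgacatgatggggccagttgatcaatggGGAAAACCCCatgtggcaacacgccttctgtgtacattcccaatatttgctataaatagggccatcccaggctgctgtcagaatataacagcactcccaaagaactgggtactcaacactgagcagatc
NFKBIA (chr14:35404700-35404999, - strand): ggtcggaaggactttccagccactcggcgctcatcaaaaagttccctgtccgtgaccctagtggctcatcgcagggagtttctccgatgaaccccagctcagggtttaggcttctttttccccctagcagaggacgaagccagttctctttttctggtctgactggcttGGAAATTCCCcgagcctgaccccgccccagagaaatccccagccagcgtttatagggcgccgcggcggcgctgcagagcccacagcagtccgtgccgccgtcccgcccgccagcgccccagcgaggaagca

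Genes of the extracellular matrix and its proteases had 6 of 31 above and 1 below, together 22.6%, against 4.88% above and 4.24% below over all named genes. ADAMTS1 (ILMN_1673566), a secreted metalloprotease, read 8.14 and 7.74 in control, 8.72 and 8.73 in DICER1-sh and 8.61 and 8.68 in DROSHA-sh, a difference of 0.75 (SE 0.22). PLAU, the urokinase plasminogen activator, differed by 0.54 (SE 0.24), COL5A1, a fibrillar collagen chain, by 0.55 (SE 0.22), and the membrane protease MMP14 by 0.78 (SE 0.35). The 4 knockdown arrays of ADAMTS1 lay closer to each other than its controls did, and the list's median was 0.06, or 0.19 without control 1 and 0.02 without control 2. FN1, fibronectin, was not above background in control and at least 1.17-fold higher. COL13A1 also lay above, and COL12A1 lay below with -0.49 (SE 0.25). The second probe of COL12A1 differed by -0.20, with overlapping groups. MMP14, COL13A1, COL12A1 and NFKBIE were named after their values were seen.

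Other lists had medians away from 0 that moved with control 1. Replication-dependent histones had a median of 0.61, with 3 of 19 above (H2BC12, H2BC5 and H4C11), but 0.07 without control 1 and 0.88 without control 2. H2BC5 (ILMN_1651496) read 8.80 and 9.63 in control, 9.84 and 9.77 in DICER1-sh and 10.59 and 10.95 in DROSHA-sh, a difference of 1.07 that was 0.65 without control 1. The second probes of H2BC5 and H2BC12 differed by 0.83 and 0.92, each with overlapping groups. Histone copies are near-identical, so their probes can share signal. Antigen presentation had a median of 0.53 (0.04 and 1.08), with HLA-DRA above at 0.53 (SE 0.23). Oxidative phosphorylation had a median of 0.37 (-0.09 and 0.83), yet 0 of 53 genes lay above and 2 lay below, the ATP synthase subunits ATP5F1B and ATP5F1C. Cytosolic ribosomal proteins had a median of 0.15 (-0.07 and 0.36), with RPL32 and RPL28 above among 64. The second probe of HLA-DRA differed by 0.66, and other probes of RPL32 by 0.11, -0.05 and 0.38, all with overlapping groups. The non-overlapping shares of these lists, in the order given, were 15.8%, 5.88%, 3.77% and 3.1%, against 9.12% of all named genes.

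Cholesterol and interferon genes did not overlap in shares of 11.5% and 7.5%, near the 9.12% of all named genes. Of 26 cholesterol and lipid synthesis genes, 0 lay above and 3 below: MSMO1, a sterol demethylase, HMGCS1, which makes the precursor of mevalonate, and the desaturase SCD. MSMO1 (ILMN_1720889) read 12.35 and 11.97 in control, 11.46 and 11.74 in DICER1-sh and 11.33 and 11.42 in DROSHA-sh, a difference of -0.67 (SE 0.24), while HMGCS1 and SCD differed by -0.55 and -0.41. The other kept probes of MSMO1 differed by -1.10, or -0.06 without control 1, and by 0.18, each with overlapping groups. The median of the list was nonetheless -0.05, with 11 of 26 genes higher in the knockdowns. Of 40 interferon-response genes, 0 lay above and 3 below, IFIT2, USP18 and IFIT5, with a list median of 0.04. IFIT2 (ILMN_1739428), an interferon-induced RNA-binding protein, read 13.19 and 12.57 in control, 12.10 and 12.39 in DICER1-sh and 12.08 and 12.23 in DROSHA-sh, a difference of -0.68 that was -0.37 without control 1.

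Of 57 cell-cycle genes, 1 lay above and 4 below, 8.77% against 9.12% of all named genes. CDC25A, the phosphatase that activates cyclin-dependent kinases, was above by 0.77 (0.43 without control 1). Its second probe differed by 0.39, or 0.02 without control 2, with overlapping groups. BUB1B, a spindle checkpoint kinase, and PCNA were below by -0.24 and -0.28. KIF20A and AURKA, a mitotic kinesin and a mitotic kinase named after their values were seen, were below by -0.34 and -0.24. The second probe of AURKA differed by -0.15, with overlapping groups. Epithelial markers had 2 above (DSP and EPCAM) and 2 below (CLDN4 and TJP1) of 14, together 28.6%. The second probes of EPCAM and TJP1 differed by 0.19 and 0.01, each with overlapping groups. The p53 targets had ZMAT3 and TNFRSF10B above and TP53INP1 below among 24, together 12.5%. Other probes of ZMAT3 differed by 0.05 and -0.19, those of TNFRSF10B by 0.11 and -0.34, and that of TP53INP1 by -0.29. All of these had overlapping groups.

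**Figure D4:**
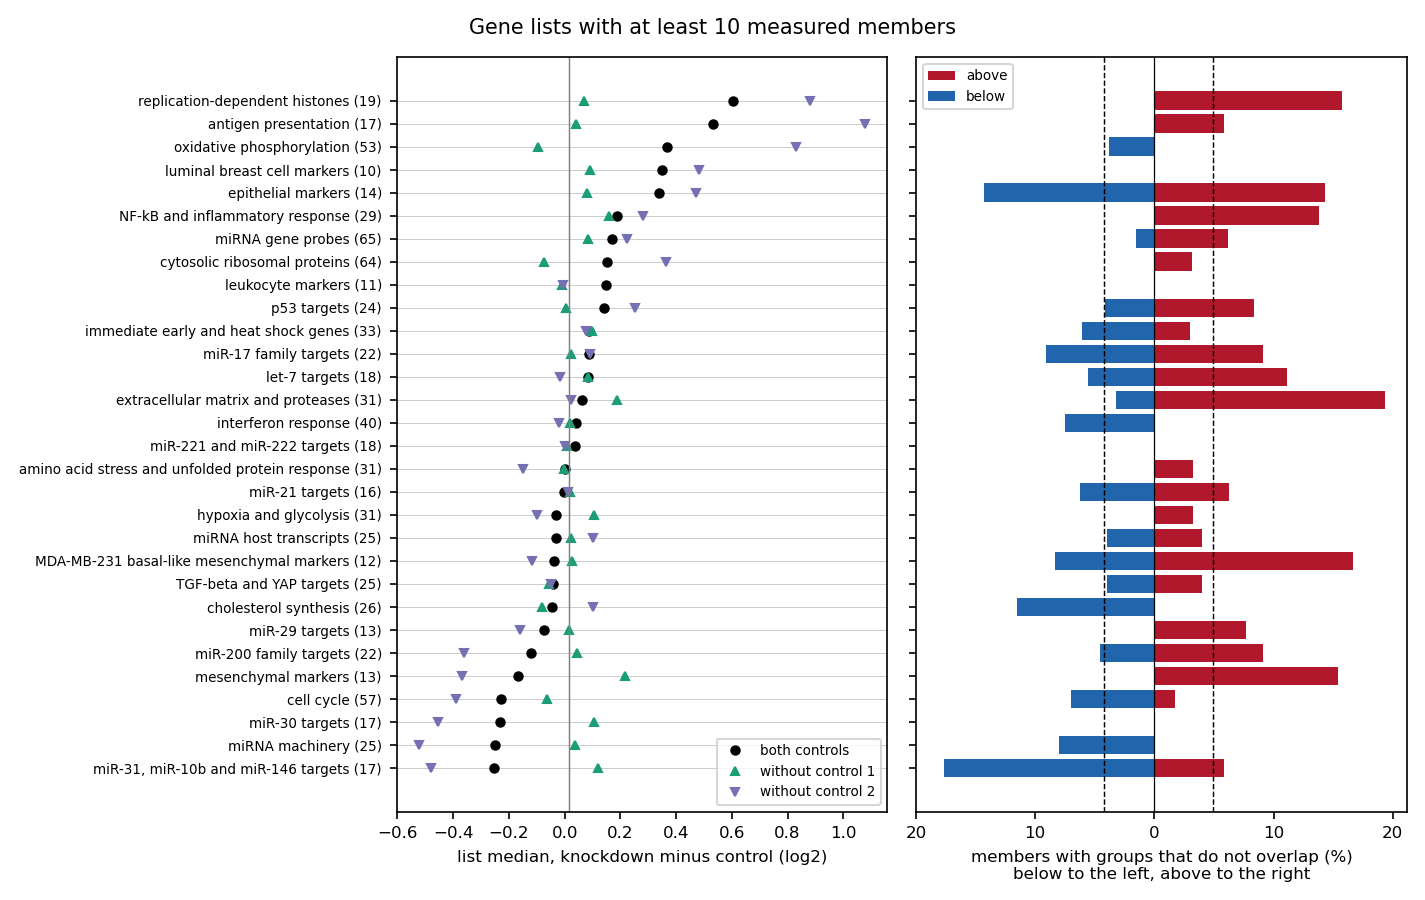
Left: median difference between knockdown and control (log2) over the measured members of each list, with both controls and with either control left out. Right: percent of members below (left of 0) and above (right of 0) the controls on all 4 arrays; dashed lines mark 4.24% below and 4.88% above over all named genes.

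Genes of the miRNA machinery and the host transcripts of miRNAs each had 2 of 25 measured members (8%) outside the range of the controls, a share near the 9.12% of all named genes. Of the 25 genes of the processing and effector machinery, 0 lay above and 2 below: TUT4, which adds uridines to let-7 precursors, and PRKRA, a partner of DICER1. TUT4 (ILMN_2373099) read 8.49 and 8.58 in control, 8.17 and 8.36 in DICER1-sh and 7.87 and 8.24 in DROSHA-sh, a difference of -0.38 (SE 0.23). PRKRA differed by -0.30 (SE 0.22). The list's median was -0.25, which was 0.04 when control 1 was left out and -0.52 when control 2 was. Of the 25 host transcripts, EVL lay above by 0.44 (SE 0.23) and CTDSPL below by -0.40 (SE 0.22).

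Target lists of the miRNA families above had between 0 and 2 genes above. Non-overlapping shares were 16.7% for let-7, 12.5% for miR-21 and 18.2% for miR-17 family targets, against 9.12% of all named genes. Of 18 let-7 targets, CCND2 and CDC25A lay above and MYC below. CCND2 (ILMN_2067656) read 10.00 and 9.46 in control, 10.57 and 10.60 in DICER1-sh and 10.32 and 10.46 in DROSHA-sh, a difference of 0.75 (SE 0.24) that was 0.48 without control 2. MYC differed by -0.22 (SE 0.21), and its second probe by -0.35, with overlapping groups. Of 16 miR-21 targets, CDC25A lay above and MARCKS below. Of 22 miR-17 family targets, TXNIP, which inhibits thioredoxin, and ZBTB4, a zinc finger repressor, lay above, and TP53INP1 and MAPK9 lay below. TXNIP differed by 0.48 (SE 0.23), or 0.25 without control 2. The second probes of ZBTB4 and MAPK9 differed by 0.22 and -0.26, each with overlapping groups.

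Of 13 miR-29 targets COL5A1 lay above, and of 22 miR-200 targets the formin FHOD1 (0.69, or 0.36 without control 1) and FN1 lay above and MARCKS below. Non-overlapping shares were 7.69% for miR-29 and 13.6% for miR-200 targets. The list joining miR-31, miR-10b and miR-146 had 23.5%, against 9.12% of all named genes. None of 17 miR-30 targets and none of 18 miR-221 and miR-222 targets lay outside the controls in either direction. Among 17 targets of miR-31, miR-10b and miR-146, the transcription factor KLF4 lay above by 0.14 (SE 0.21), while BDNF, a neurotrophin, RDX, an actin linker of the membrane, and SMAD4, the shared SMAD of TGF-beta signalling, lay below. RDX (-0.62) and SMAD4 (-0.85) were -0.30 and -0.31 without control 1. The second probe of KLF4 differed by 0.16, and other probes of BDNF by -0.33 and -0.31, all with overlapping groups. The medians of these lists lay between -0.25 and 0.09 with both controls, between 0.01 and 0.12 without control 1, and between -0.48 and 0.09 without control 2.

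Of 65 probes for miRNA genes, 4 lay above (MIR29B1, MIR1206, MIR373 and MIR181A1) and 1 below (MIR568). Together these were 7.69%, against 9.12% of all named genes. MIR29B1 (ILMN_3309699) read 4.70 and 5.04 in control against 5.40, 5.84, 5.68 and 6.20 in the knockdowns, and with no control above background it was at least 1.06-fold higher. The probes of MIR29B1, MIR1206 and MIR568 lay near background, while 19 of the 65 were above background on all 6 arrays. Whether miRNA gene probes read a precursor or a longer transcript is not given in the sources used here. MIR373 and MIR181A1 were named after their values were seen.

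The 2 knockdowns were read against each other to see how alike they were in the genes that did not overlap. Between DROSHA-sh and DICER1-sh, 1 of 17790 features (0.00562%) passed an adjusted p of 0.05 in limma, MIR21, whose pooled groups overlapped. Among the 1102 named genes that did not overlap, 0 passed. The same contrast did not call the targeted genes DROSHA (-2.12) and DICER1 (1.78) either. The absence of calls therefore does not show that the knockdowns were alike. The median absolute difference between the knockdowns was 0.132 among features above and 0.152 among those below, against 0.196 over all features; the rule itself narrows this range, so the smaller value is a description. DROSHA-sh had the higher mean in 297 of the 590 genes above and 240 of the 512 below. H2BC5 (0.97) and TGFBI (0.57) were higher in DROSHA-sh, and BTN3A2 (-0.50) and HMGCS1 (-0.42) higher in DICER1-sh.

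Genes above and below differed in length, a property the rule did not use. The median gene length was 19.5 kb among genes above, 40.4 kb among genes below and 27.8 kb over all measured genes with a RefSeq length (99.9%). With all genes ranked by length into 4 bins of equal number, 6.43% of the shortest bin lay above and 2.29% below, and 3.48% of the longest bin lay above and 5.80% below. From the shortest to the longest bin the median difference went from 0.21 to -0.14 with both controls. Leaving out control 2 gave 0.41 to -0.30, and leaving out control 1 gave -0.04 to 0.03. Between control 1 and control 2 themselves the medians ran from -0.44 to 0.34. Both of these are parts of the same pooled difference and no separate test of it. Median promoter GC was 63% above, 66% below and 65% over all genes.

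**Figure D5:**
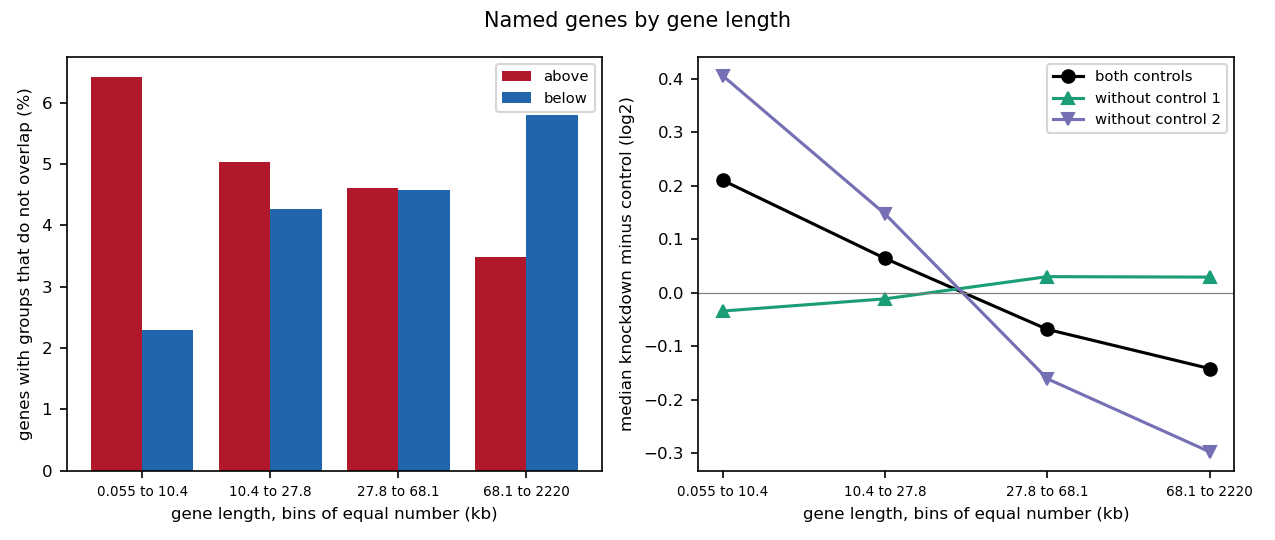
Left: percent of named genes above and below the controls on all 4 knockdown arrays, in 4 bins of gene length (kb). Right: median difference between knockdown and control (log2) in the same bins, with both controls and with either left out; it goes from 0.21 to -0.14 with both and from -0.04 to 0.03 without control 1.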

How the data were processed

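The study measured total RNA of 6 samples on Illumina bead arrays, 2 each of control, DICER1-sh and DROSHA-sh MDA-MB-231 cells. The authors deposited a table of raw mean bead intensity per probe, per the file headers not normalized, and a detection p-value for each intensity, also per the file headers. They also deposited a table of processed intensity values, normalized in a way not given in the sources used here; the submitters' processing notes name GenomeStudio. Raw intensities were background-corrected with neqc of limma 3.58.1 (R 4.3.3; offset 16, quantile normalization, log2). Of 47319 probes 22091 were kept, which gave 17790 features. Platform annotation named 30112 probes by 1 symbol, 8 by several and 17199 by none, and 30073 symbols were updated through RefSeq (GRCh38.p14); unnamed probes were 32.1% of features. lmFit and eBayes compared the 4 knockdown arrays with the 2 controls in a fit of 2 groups, with Benjamini-Hochberg adjustment over all features and a threshold of 0.05. A fit of 3 groups gave DROSHA-sh minus DICER1-sh. The method was tested on simulated data. The number of arrays limits the precision.

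Named were the targeted genes, the 12 named genes with the widest gap in each direction, up to 3 non-overlapping members of each gene list with the widest gaps, and those nearest the limit of the rule. Genes outside this rule, among them the other SPANX genes, EPCAM, MAPK9 and MIR21, were named after their values were seen. Members and lists were chosen with earlier results of these data known. Replicate numbers do not pair the samples: deviations of same-numbered arrays from their group means had correlations of -0.63 (control and DICER1-sh), -0.03 and 0.02. Alternatives were other background correction, offset and scaling, other filters, the deposited processed values, all probes, array weights, a replicate block and each array left out.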

Additional observations from a re-analysis of the deposited data

Results flagged for a closer look

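Each named gene's 4 knockdown arrays were searched for a single array far from the rest with Dixon's test, which chance meets in about 1 in 20 groups, and 7 of 82 genes had one. DICER1-sh 1 was apart for ZBTB4 at 11.72, for TNFRSF10B at 12.05 and for ATP5F1C at 12.41, the first 2 higher and the last lower than the other knockdown arrays. DICER1-sh 2 was the low array of DEFB103A at 7.18 and of TJP1 at 11.01. DROSHA-sh 2 was high for B3GNT8 at 7.05 and low for FN1 at 5.55. The difference between the knockdowns passed the test for MIR21 (ILMN_3310840), the gene of miR-21: it read 5.19 and 4.84 in control, 4.82 and 4.97 in DICER1-sh and 8.40 and 8.67 in DROSHA-sh. The difference of DROSHA-sh minus DICER1-sh was 3.64 (SE 0.28, adjusted p = 0.0434 in limma), and with the DICER1-sh arrays not above background it was at least 7.12-fold.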

How the results depend on the processing

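The pooled fit called 0 features under all 18 alternatives. DICER1's pooled change turned to 0.064 without control 1 and to 0.040 with array weights, and ranged from -1.12 to 0.064 over the arrays left out; DROSHA kept its direction throughout. Leaving out 1 array gave 1172 to 6175 features above, 949 to 5518 below and 67 to 511 listed genes. Fewer arrays are easier to separate, but the counts also differed by which control was left out. Without control 1, 2778 lay above and 2728 below, and without control 2, 6175 above and 5518 below. Without the detection filter, which tested 37252 features, 2292 lay above and 1984 below. Features with an unadjusted p below 0.05 numbered 529 in the pooled fit, 398 without control 1, 4654 without control 2 and 1177 without DICER1-sh 2. DROSHA-sh against DICER1-sh called 0 features with all kept probes, no background correction, an offset of 50, no detection filter, detection on all 6 arrays, each knockdown array left out in turn (0 to 0), or the replicate block, and 5 with array weights; the cause was not tested. The replicate block changed no other call, and a crossed pairing of control and DICER1-sh arrays, added after the data were seen, gave 0 pooled calls and 6 between the knockdowns. In the deposited processed values 587 of the 590 genes above and all 512 below did not overlap either. Those values come from the same arrays and are no separate check. With cyclic loess in place of quantile normalization 519 of the 590 and 465 of the 512 remained. Near background, intensities compress differences, so the low genes have only bounds.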

Other observations

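Small noncoding RNAs of the spliceosome were among the genes above. Of 13 measured small nuclear RNA genes, 4 lay above the controls on all 4 knockdown arrays (RNU4-1, RNU4-2, RNU4ATAC and RNU6ATAC, named after their values were seen) and 0 below, against 4.88% and 4.24% of all named genes. Of 129 small nucleolar RNA genes, which guide modification of ribosomal RNA, 11 lay above (8.53%) and 4 below (3.10%). Of 244 long noncoding RNA genes, 25 lay above (10.2%) and 16 below (6.56%), against 4.68% and 4.20% of 11350 protein-coding genes. RNU4-1 and RNU4-2 are near-identical, so their probes can share signal. The second probe of RNU6ATAC differed by 0.41, with overlapping groups. Over 23 chromosomes the share above ran from 2.42% (chromosome 4) to 6.5% (chromosome 6), and the share below from 1.63% (chromosome 21) to 8.67% (chromosome 18).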
